A study of Mus musculus with 7 samples.

Results

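Expression in an ESC clone that lacked the distal Sox2 super-enhancer (SE) on both alleles was compared with expression in each of the clones that lacked it on 1 allele, and wild type cells were not used. Of the 31498 genes measured, 41 were at least 3-fold higher and 10 at least 3-fold lower in the biallelic clone than in both monoallelic clones, which is 0.130% and 0.0317% of them. These genes were chosen by that rule on log2 ratios of FPKM plus 4, and the ratios printed for them are therefore a description. With 1 in place of 4 the counts were 149 higher and 56 lower, and with 10 they were 20 and 4. With all distinct alignments as library size they were 34 and 5. The comparison rests on 3 of the 7 libraries of the series.

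All clones came from F123, a hybrid ESC line with a CAST and a 129 genome, in which the SE was excised with Cas9 and a pair of guide RNAs. The SE was deleted on the 129 allele in CAST+/129-, on the CAST allele in CAST-/129+ and on both alleles in CAST-/129-. Each genotype is 1 clone and 1 library of strand-specific RNA-seq on polyadenylated RNA, so that clone, library and genotype cannot be told apart and no test of a difference can be made. Clones were recovered on feeders of embryonic fibroblasts, and the last passages ahead of harvest were on gelatin alone.

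Sox2 is an HMG-box transcription factor that binds DNA together with Oct4 (Pou5f1) at many genes active in pluripotent cells, its own gene among them. A super-enhancer is a long stretch of neighbouring enhancer elements with dense H3K27ac, a histone mark of active enhancers and promoters. When ESCs leave the pluripotent state, naive factors such as Nanog, Zfp42 and Esrrb are turned off, and genes of the early germ layers or of other lineages can be switched on.

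The sequences below show the most acetylated stretch after Sox2 and the promoters of Nanog, which is not among the 51 genes but holds a joint site, and of a pair of lower genes with an E-box. The former is the 300 bases with the most H3K27ac 5′ ends in the acetylated domain after Sox2, taken from the mm9 reference, at 279-fold the chromosome 3 mean. The promoter sequences are the 250 bases before the annotated start, taken from RefSeq on GRCm38.p6. Capitals mark a joint Sox and octamer site, CATTGT and ATGCAAA with 1 base between them, in Nanog, and CACGTG, an E-box, in Hormad1 and Stk31, on either strand.
Highest H3K27ac after Sox2, chr3:34658505-34658804, plus strand: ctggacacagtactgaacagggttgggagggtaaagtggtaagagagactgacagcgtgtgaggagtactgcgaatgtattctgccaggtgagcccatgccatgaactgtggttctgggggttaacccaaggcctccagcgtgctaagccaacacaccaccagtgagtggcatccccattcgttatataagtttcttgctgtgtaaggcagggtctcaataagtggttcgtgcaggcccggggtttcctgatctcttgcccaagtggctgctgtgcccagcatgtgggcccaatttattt
Nanog, chr6:122707239-122707488, plus strand: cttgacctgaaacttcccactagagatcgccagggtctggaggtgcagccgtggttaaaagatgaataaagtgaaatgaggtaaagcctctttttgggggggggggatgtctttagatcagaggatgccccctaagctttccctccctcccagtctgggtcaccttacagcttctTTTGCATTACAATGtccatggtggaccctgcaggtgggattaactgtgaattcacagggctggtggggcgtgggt
Hormad1, chr3:95559427-95559676, plus strand: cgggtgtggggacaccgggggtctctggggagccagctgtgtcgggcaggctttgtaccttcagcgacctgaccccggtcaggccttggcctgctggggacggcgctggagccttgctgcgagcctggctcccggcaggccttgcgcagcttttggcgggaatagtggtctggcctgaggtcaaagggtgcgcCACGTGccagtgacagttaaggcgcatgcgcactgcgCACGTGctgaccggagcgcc
Stk31, chr6:49395289-49395538, plus strand: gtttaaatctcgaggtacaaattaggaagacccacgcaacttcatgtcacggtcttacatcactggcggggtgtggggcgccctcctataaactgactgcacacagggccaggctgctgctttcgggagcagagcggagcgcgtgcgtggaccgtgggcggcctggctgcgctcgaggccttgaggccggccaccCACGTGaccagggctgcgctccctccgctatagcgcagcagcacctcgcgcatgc

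The joint site, matched letter by letter on both strands, was in the upstream window of 1 of 27025 genes, which was Nanog (0.0037%). The E-box CACGTG was in that of 6.86% of these genes. It was in 3 of the 7 lower genes with a promoter in the table, which were Hormad1, Stk31 and Npl, and in 0 of the 26 higher genes with one. In the germline list it was in 7 of 17. Such matches are letters in a reference sequence and not measured sites of binding.

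Sox2 (ENSMUSG00000074637.3, chr3:34548927-34551383 of mm9, plus strand) was among the 10 lower genes. It had 2510 distinct alignments in CAST+/129-, 1088 in CAST-/129+ and 106 in CAST-/129-. In the same order its level was 82.0 FPKM (95% Poisson interval 78.8 to 85.3), 73.1 FPKM (68.8 to 77.6) and 7.40 FPKM (6.06 to 8.95). The monoallelic clones differed by less than 2-fold, with intervals that do not overlap, and the biallelic clone lay far below both. Sox2 in CAST-/129- was 9.02% (7.36 to 10.96) of its level in CAST+/129- and 10.1% (8.21 to 12.4) of that in CAST-/129+. These intervals are exact, cover counting error only and are too narrow, since both mates of a read pair are counted.

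H3K27ac in F123 cells formed a domain of 28000 bp at chr3:34650001-34678000, which starts 98618 bp after the end of Sox2 and is 44.8-fold over the chromosome mean. It was defined by the mark and is not the deleted interval itself, but it was chosen as the domain that holds the deleted SE. Alleles with the deletion lack the DNA from which RNA of the SE would be made. The paper reports that the deletion overlaps the start of a noncoding transcript, Peril, which was lost from deleted alleles. The part of missing DNA in the values below was not tested. RNA of the plus strand in this domain was seen in 258 distinct alignments for CAST+/129-, 25 for CAST-/129+ and 7 for CAST-/129-. This gives CPM (counts scaled to all alignments on genes) of 20.7 (18.3 to 23.4), 4.13 (2.67 to 6.09) and 1.20 (0.483 to 2.47). The biallelic clone was lowest, at 5.80% (2.31 to 12.1) of CAST+/129- and 29.1% (10.6 to 69.2) of CAST-/129+, and the monoallelic clones themselves were far apart. RNA of the minus strand was at 3.61, 6.77 and 2.40 CPM in the same order, with overlapping intervals for CAST+/129- and the biallelic clone.

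**Figure D1:**
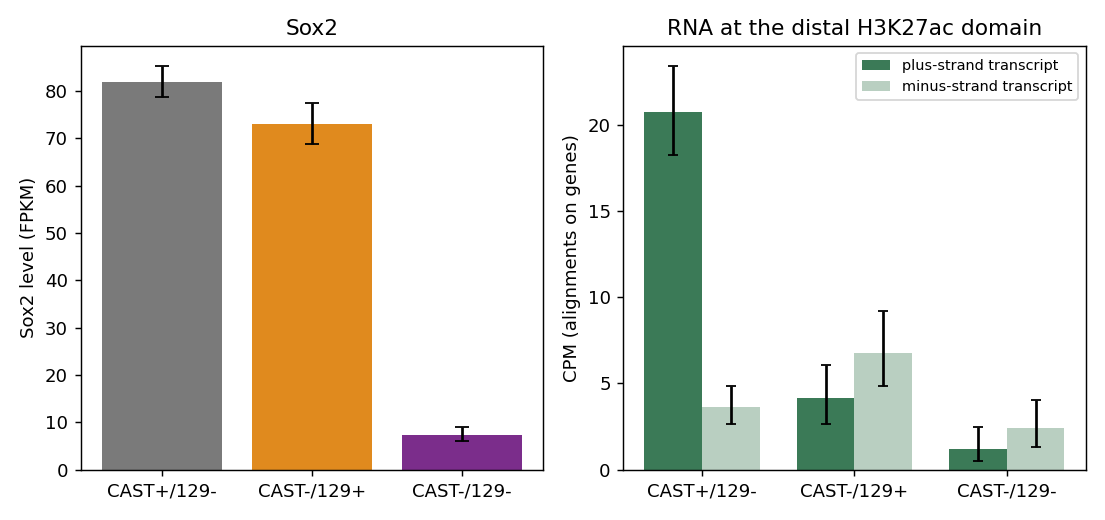
Sox2 level in FPKM (left) and CPM at the distal H3K27ac domain by transcript strand (right) in the 3 clones, 1 library each, with exact 95% Poisson intervals of the counts as bars. Sox2 is at 82.0, 73.1 and 7.40 FPKM, and plus-strand RNA of the domain is highest in CAST+/129- and lowest in CAST-/129-.

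The protein-coding neighbours of Sox2 were closer between clones. Dnajc19, which encodes a mitochondrial import protein, was at 10.4, 10.4 and 8.58 FPKM in CAST+/129-, CAST-/129+ and CAST-/129-. Atp11b, which encodes a lipid flippase, was at 30.7, 30.8 and 24.2 FPKM. Sox2ot, the noncoding RNA that overlaps Sox2 on the same strand, was represented by 58, 22 and 6 alignments, and its 0.544, 0.425 and 0.120 FPKM are too low for the 3-fold rule to reach. It was at 22.1% (7.79 to 51.1) of CAST+/129- and 28.3% (9.40 to 72.1) of CAST-/129+ in the biallelic clone. Of 17 genes within 2 Mb with a mean of at least 1 FPKM, 0 passed 3-fold or 2-fold against both clones, as few genes did over the whole genome (0.552% higher and 0.184% lower at 2-fold). By direction alone, 13 of the 17 were lower and 3 higher than both, beside 40.7% and 33.9% of all genes at that mean. The ends of their range were Mrpl47, with a smaller log2 ratio of -0.52, and Anxa5, with 0.49, both named after their values were seen.

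The smaller of the log2 ratios against both monoallelic clones ranks genes here, so that a gene ranks high only if it differs from each. Against CAST+/129- alone 81 genes were 3-fold higher and 29 lower in CAST-/129-, and against CAST-/129+ alone 63 were higher and 18 lower. Both comparisons share the biallelic library, so that its own deviations enter both. Between the monoallelic clones 33 genes were 3-fold apart, 28 higher (0.0889% of genes) and 5 lower (0.0159%) in CAST-/129+ than in CAST+/129-. A gene needs at least 8 FPKM in the biallelic clone to be called higher, and in both monoallelic clones to be called lower. Of the genes with such levels, 0.532% and 0.140% were called.

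**Figure D2:**
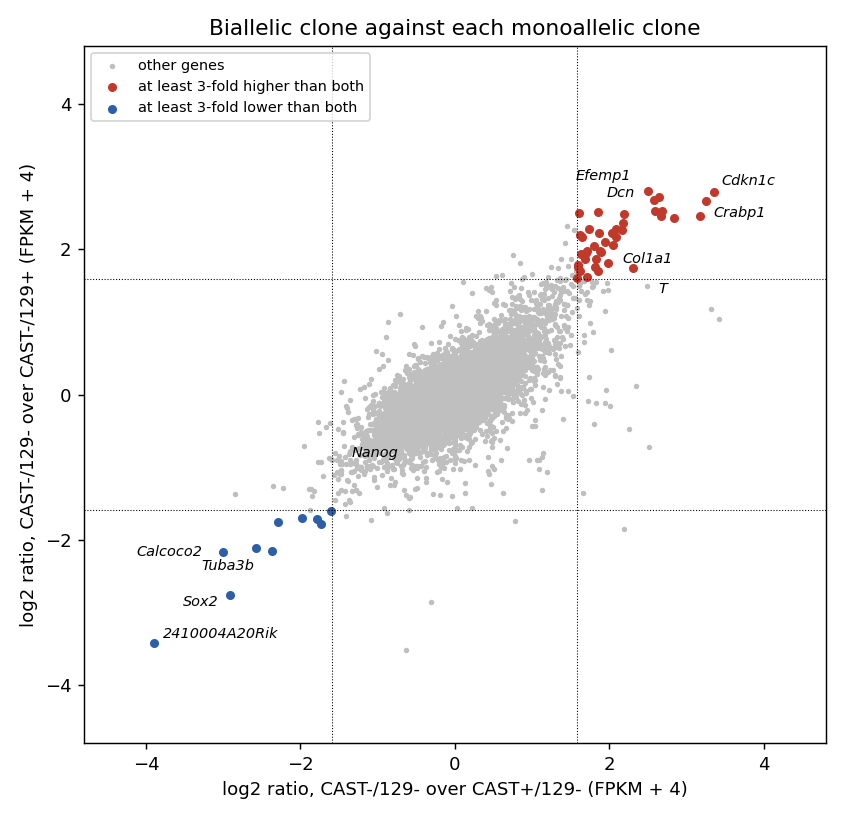
Log2 ratio of FPKM plus 4 in CAST-/129- over CAST+/129- (x axis) and over CAST-/129+ (y axis), with 1 point per gene, 1 library per clone and 3-fold thresholds as dotted lines. The 41 higher and 10 lower genes lie outside the thresholds on both axes, and the diagonal spread includes what the shared biallelic library adds to both axes.

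Among the lower genes, 2410004A20Rik on chromosome 9, annotated as protein coding, ranked first. It was at 120.3, 85.4 and 4.35 FPKM in CAST+/129-, CAST-/129+ and CAST-/129-, with log2 ratios of -3.90 and -3.42. Calcoco2, which encodes an autophagy receptor, was at 96.9, 52.4 and 8.57 FPKM. In both genes the biallelic clone was far below the lower of the monoallelic clones, and Sox2 ranked between them.

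Rpl39l encodes a variant of a large-subunit ribosomal protein with high expression in testis. Its level was 58.3, 49.7 and 8.05 FPKM, while the related Rpl39 was at 99.5, 133.0 and 106.2 FPKM. Tuba3b, an alpha-tubulin gene of the testis, had 515, 170 and 6 alignments and 23.3, 15.8 and 0.580 FPKM. Its near-identical copy Tuba3a was at 22.1, 9.63 and 1.59 FPKM, so that both copies were lowest in the biallelic clone, although reads may be split between them. The call of Tuba3b was lost with 10 added to FPKM (-1.29).

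Hormad1, the 1 lower gene of the germline list described next, which encodes a protein of the meiotic chromosome axis, was at 36.6, 29.3 and 6.25 FPKM. Stk31, which encodes a germ cell kinase, was at 21.8, 22.6 and 3.76 FPKM. Zcwpw1, whose product reads histone marks at meiotic recombination sites, was at 22.6, 21.2 and 3.71 FPKM. Stk31 and Zcwpw1 are in none of the lists. Their smaller log2 ratios did not reach 3-fold with all distinct alignments as library size (-1.53 and -1.46), with reads before collapsing (-1.49 and -1.53) and with 10 added to FPKM (-1.21 and -1.19). The 3 genes were close between the monoallelic clones and low in the biallelic clone, as was Hsf2bp, a meiotic recombination gene just outside the threshold with 22.2, 17.5 and 3.17 FPKM. Hsf2bp had a smaller log2 ratio of -1.58, while the last lower gene inside was at -1.60.

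Npl, which encodes an enzyme that cleaves sialic acid, was at 24.5, 15.8 and 1.83 FPKM, and its call was lost under the same settings (-1.48, -1.57 and -1.12). The pseudogene Gm15529 had 101, 49 and 0 alignments. Against the limit of 3 counts that a count of 0 allows in that library, it was at least 15.8-fold lower than in CAST+/129- and 15.7-fold lower than in CAST-/129+, for counting error only. Reads of a pseudogene may belong to its parent gene, and its value is uncertain for that reason. Its call was lost under these settings too (-1.28, -1.27 and -0.86) and with libraries thinned to equal reads (-1.53).

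The germline list, 22 genes of meiosis, piRNA and early germ cells, had 1 gene called lower (Hormad1) and 0 called higher. Over all genes 0.0317% were called lower and 0.130% higher. By direction alone, 21 of the 22 genes in the list were lower in CAST-/129- than in both monoallelic clones. Of 13676 genes with a mean of at least 1 FPKM, 40.7% were lower and 33.9% higher than both. The list's median log2 ratios were -0.63 and -0.47, beside -0.03 and -0.02 for these genes. The call of Hormad1 was lost with all distinct alignments as library size, where its smaller log2 ratio was -1.48, and with 10 added to FPKM, where it was -1.27. Fibroblast and macrophage markers were higher in the same library, and their part in the values of this list and of the pluripotency genes was not tested. Dppa3, a maternal factor that protects DNA methylation, was at 89.4, 108.4 and 31.1 FPKM, and Ooep, a component of the subcortical maternal complex, at 28.3, 31.2 and 8.58 FPKM. The exception was Taf7l, a germ cell form of a TFIID subunit, at 6.83, 6.84 and 11.2 FPKM.

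**Figure D3:**
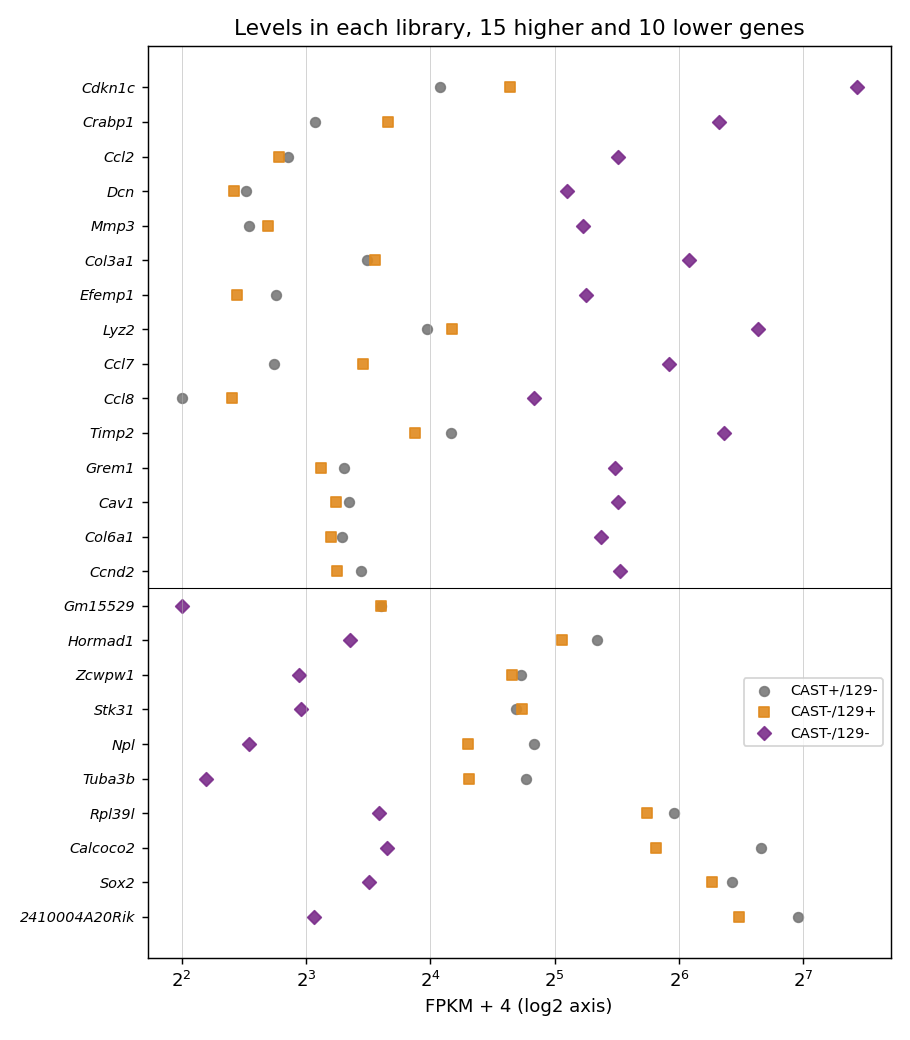
FPKM plus 4 on a log2 axis in the 3 clones, 1 library each, for the 15 genes that ranked highest (above the line) and the 10 lower genes (below it). In every row CAST-/129- lies outside the monoallelic clones, which the rule that picked these genes requires.

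Pluripotency genes other than Sox2 did not pass 3-fold against both clones, but most were lower. Of 27 naive pluripotency regulators, 22 were lower than in both monoallelic clones and 1 was higher, beside 40.7% and 33.9% of genes with a mean of at least 1 FPKM, and median log2 ratios were -0.72 and -0.33. In that library the summed level of fibroblast markers was 1639 FPKM, against 447.1 and 455.0 in the monoallelic clones. Nanog was at 115.4 FPKM in CAST+/129-, 76.5 in CAST-/129+ and 38.9 in CAST-/129-. Zfp42, a zinc finger gene used as an ESC marker, was at 165.5, 101.4 and 52.3 FPKM in the same order. Esrrb, an orphan nuclear receptor, was at 51.3, 31.4 and 21.3 FPKM. All 3 followed the same order of clones, with CAST-/129+ between the others.

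Pou5f1, which encodes Oct4, was at 131.7, 206.9 and 163.4 FPKM, so that the biallelic clone lay between the monoallelic clones. Klf4, a naive factor that acts downstream of LIF, was at 19.3, 13.9 and 8.29 FPKM. Tet1, which oxidises methylated cytosine, was at 60.0, 45.4 and 34.9 FPKM, and Kit, a receptor tyrosine kinase, was at 5.13, 7.70 and 3.56 FPKM. Only Pou5f1 of these was not lowest in the biallelic clone. In the list, 3 genes (Sox2, Fbxo15 and Dppa3) were 2-fold lower than both, beside 0.184% of all genes.

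Among 12 joint targets of Oct4 and Sox2, Sox2 was the 1 gene called, beside 0.0317% of all genes called lower. Fbxo15, an F-box gene of ESCs, was at 167.7, 121.3 and 43.4 FPKM, whereas Spp1 (osteopontin) was at 101.4, 77.8 and 235.0 FPKM. Lefty1, an inhibitor of Nodal, was at 23.9, 43.9 and 102.9 FPKM. Targets thus lay on both sides, with 8 of 12 lower and 3 higher than both, beside the same 40.7% and 33.9%. In the Sox family, 18 genes were measured and Sox2 was called, beside the same 0.0317%. Sox15, a Sox gene expressed in ESCs, was at 26.9, 13.2 and 10.4 FPKM, Sox21 at 4.04, 3.08 and 1.08 FPKM and Sox3 at 1.79, 3.76 and 6.66 FPKM.

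The study's list of genes with Sox2 at the promoter held 810 genes that could be matched. Of these, 1 was called higher (Thbs2) and 1 lower (Sox2), beside 0.130% and 0.0317% of all genes. With 10 added to FPKM 0 were called higher. Of the 708 with a mean of at least 1 FPKM, 30.5% were higher and 43.1% lower than both, close to 33.9% and 40.7% over all genes. Their median log2 ratios were -0.03 and -0.05, which also lie near those of all genes. With a 2-fold threshold 6 were higher and 5 lower, the latter being Sox2, Fbxo15, Tpd52, Pipox and Liph. Over all genes 174 (0.552%) were higher and 58 (0.184%) lower at that threshold.

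With 4 added to FPKM, Cdkn1c had the largest smaller log2 ratio above both monoallelic clones. With 1 added its smaller ratio was 2.95, below those of genes such as Dcn (3.51) and Ccl8 (3.48). Cdkn1c is an imprinted gene on chromosome 7 that encodes a cyclin-dependent kinase inhibitor. It had 309, 245 and 1895 alignments in CAST+/129-, CAST-/129+ and CAST-/129-, or 12.8, 20.9 and 168.3 FPKM. Its level in the biallelic clone was 13.1-fold (11.6 to 14.8) that in CAST+/129- and 8.04-fold (7.03 to 9.22) that in CAST-/129+. Ccnd2, which encodes a D cyclin, was at 6.88, 5.50 and 42.1 FPKM. Both genes were far above the range of the monoallelic clones.

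These were the 2 genes called among 14 cell cycle inhibitors, D cyclins and p53 genes, beside 0.130% of all genes called higher. In that list 5 were 2-fold higher than both, beside 0.552% of all genes. Fibroblast markers were higher in the same library, with a summed level of 447.1, 455.0 and 1639 FPKM, and their part in these values was not tested. Ccnd1 was at 21.7, 25.6 and 75.7 FPKM, Cdkn2b at 5.88, 8.18 and 27.7 FPKM and Cdkn1a at 49.4, 51.5 and 130.5 FPKM. Trp53, by contrast, was at 96.9, 85.7 and 68.9 FPKM. Ccnd3, a further D cyclin, was at 118.4, 109.5 and 94.1 FPKM, so that the list did not have 1 direction.

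Of 30 imprinted genes measured, Cdkn1c was the 1 called, beside 0.130% of all genes called higher. Of the 28 with a mean of at least 1 FPKM, 14 were higher and 8 lower than both, beside 33.9% and 40.7% of all such genes. Phlda2, a growth-restricting neighbour of Cdkn1c, was at 21.6, 10.03 and 66.4 FPKM. Igf2, a fetal growth factor, was at 2.9955, 32.4 and 71.0 FPKM, so that CAST+/129- stood apart from the other clones. H19, which shares an enhancer region with Igf2, was at 570.7, 554.4 and 588.5 FPKM and differed little between clones. The part of fibroblasts in the values of this list was not tested.

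Crabp1, which encodes a retinoic acid binding protein, was at 4.40, 8.64 and 76.1 FPKM and ranked next to Cdkn1c. Timp2, an inhibitor of metalloproteinases, was at 14.0, 10.7 and 78.1 FPKM, and Cav1, the main caveolar protein, at 6.19, 5.48 and 41.6 FPKM. In all 3 the biallelic clone was far above both others. What fibroblasts contributed to these values was not tested.

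Of all gene lists, that of fibroblast markers had the most genes called higher. In the list of 30 fibroblast markers, 19 were called higher, 25 passed 2-fold and all 30 were higher than in both monoallelic clones, beside 0.130% and 0.552% of all genes and 33.9% of those with a mean of at least 1 FPKM. Median log2 ratios were 1.75 and 1.86. With 10 added to FPKM 9 were called. Their summed level was 447.1 FPKM in CAST+/129-, 455.0 in CAST-/129+ and 1639 in CAST-/129-. None of the markers had a count of 0 in any of these libraries. Whether the libraries held more cells of a type or more RNA per cell cannot be told apart in bulk RNA. What fibroblasts, such as feeder cells, contributed to these values was not tested.

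Col3a1, a fibrillar collagen, was at 7.24, 7.75 and 63.8 FPKM, and Col1a1, the main collagen of bone and skin, at 39.0, 38.9 and 174.4 FPKM. Dcn (decorin), a small proteoglycan, had 42, 16 and 342 alignments and 1.74, 1.36 and 30.3 FPKM. The monoallelic clones differed little in all 3. Mmp3, a secreted metalloproteinase, was at 1.83, 2.48 and 33.5 FPKM, Efemp1, a fibulin, at 2.76, 1.46 and 34.2 FPKM, and Grem1, a secreted BMP antagonist, at 5.86, 4.70 and 40.8 FPKM. Col6a1 was at 5.77, 5.22 and 37.4 FPKM. The markers that did not pass 2-fold were Dpt, Fn1, Vim, Pdgfrb and Twist1, of which Fn1 (fibronectin) was at 109.9, 103.8 and 210.2 FPKM.

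Chemokines and lysozyme were a further group. Ccl2, a chemokine that attracts monocytes, had 46, 20 and 275 alignments and 3.24, 2.90 and 41.4 FPKM. Ccl7 was at 2.71, 7.01 and 56.5 FPKM. Ccl8 had 0, 4 and 73 alignments and was at least 52.0-fold higher in CAST-/129- than the limit of 3 counts in CAST+/129-. These 3 genes are neighbours on chromosome 11 and related in sequence, and reads could be split between them. The part of fibroblasts and macrophages in their values was not tested.

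Lyz2, the lysozyme of macrophages, was at 11.7, 14.1 and 95.5 FPKM. With the 3 chemokines it was called among 17 genes of the chemokine, lysozyme and growth factor list, beside 0.130% of all genes. Of the 14 with a mean of at least 1 FPKM, 12 were higher than both, beside 33.9% of all such genes. Lyz2 is also 1 of 12 macrophage markers and was the 1 called there, beside the same 0.130%. Of the 11 with a mean of at least 1 FPKM, 11 were higher than both. The macrophage list summed to 24.9, 31.7 and 149.9 FPKM and none of its markers had a count of 0. Emr1, which encodes F4/80, had 35, 16 and 161 alignments, with log2 ratios of 1.36 and 1.38. Csf1r, the receptor for macrophage growth factor, had 84, 98 and 131 alignments, with log2 ratios of 0.65 and 0.23. Alignments are not scaled to depth, which was largest in CAST+/129-. All 12 macrophage markers were detected in all clones, and their part in the result was not tested.

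The contractile and S100 lists differed less. Of 22 actin cytoskeleton and contractile genes 0 were called, and the largest smaller ratios were those of Myl9 (28.3, 25.6 and 70.5 FPKM), Acta1 (18.2, 15.98 and 45.3 FPKM) and Acta2 (73.7, 82.8 and 180.8 FPKM). S100a4, which is also in the fibroblast list, was the 1 called of 18 S100 and annexin genes, beside 0.130% of all genes. It was at 32.7, 28.1 and 146.7 FPKM. Among members with a mean of at least 1 FPKM, 17 of 21 contractile and 14 of 16 S100 and annexin genes were higher and 0 lower than both, beside 33.9% and 40.7% of all such genes. Fibroblast markers were higher in the same library by the sums above, and their part in these values was not tested.

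Of the 41 higher genes, 21 were in neither the fibroblast nor the macrophage list and 25 were in any list. A gene outside these lists may still be made by such cells, and their part in the values of the 21 was not tested. Those outside every list, named after their values were seen, included Lrp1, a receptor for many ligands, at 7.60, 6.85 and 38.8 FPKM, and B2m, the light chain of MHC class I, at 29.4, 45.5 and 161.5 FPKM. Efnb2, a ligand of Eph receptors, was at 14.9, 12.7 and 56.997 FPKM, and Atp4b, a subunit of the gastric proton pump, at 3.81, 1.37 and 22.1 FPKM. Just inside the threshold was Lum (lumican) with 5, 2 and 104 alignments and a smaller log2 ratio of 1.59, and just outside it Atp11a with 1.58.

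In the list of 20 primitive streak and mesoderm markers 0 were called, and of the 12 with a mean of at least 1 FPKM 7 were higher and 3 lower than both, beside 33.9% and 40.7%. T (brachyury), the defining streak factor, was at 3.16, 10.3 and 36.3 FPKM, Wnt8a at 3.13, 6.33 and 24.1 FPKM and Wnt3, the ligand that starts the streak, at 0.626, 2.15 and 8.81 FPKM. These rank in the order CAST+/129-, CAST-/129+ and CAST-/129-. Fgf8 was at 1.01, 19.6 and 21.5 FPKM and Lhx1 at 0.117, 14.9 and 10.3 FPKM, so that CAST+/129- alone was low. Bmp4, a ligand of mesoderm and trophoblast, was at 39.05, 24.9 and 7.79 FPKM, and Hand1 at 43.9, 43.8 and 19.8 FPKM.

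Among 17 primed epiblast genes, 0 were called. Cer1, a secreted antagonist of Nodal, Wnt and BMP, had 3, 151 and 379 alignments, Fgf5 was at 4.01, 26.9 and 24.5 FPKM and Otx2 at 23.9, 28.3 and 15.2 FPKM. The list median was 0.59 against CAST+/129- and -0.12 against CAST-/129+, so that the sign of the median depended on the monoallelic clone. Of its 17 genes, all with a mean of at least 1 FPKM, 7 were higher and 6 lower than both, and 4 lay between. Primitive endoderm markers, 20 genes with 0 called, had medians of 0.26 and -0.23. Of the 18 with a mean of at least 1 FPKM, 7 were higher and 4 lower than both, beside 33.9% and 40.7% of all such genes. The list's collagens Col4a2 (42.1, 44.8 and 124.1 FPKM) and Col4a1 (59.9, 70.8 and 171.5 FPKM) were 2-fold higher than both, beside 0.552% of all genes. Gata4 was at 1.83, 13.001 and 3.95 FPKM. Fibroblast markers were higher in the same library, and their part in the values of these collagens was not tested.

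Trophectoderm markers had 0 of 22 called, and of the 20 with a mean of at least 1 FPKM 9 were lower and 7 higher than both, near the 40.7% and 33.9% over all genes. The largest smaller ratios of the list were those of Hand1 (log2 ratios -1.01 and -1.01), Ascl2 (0.94 and 0.97) and Id2 (-1.33 and -0.94). Elf5, a trophoblast factor, had 155, 152 and 4 alignments, with log2 ratios of -0.57 and -1.01 after scaling to depth. Prl3d1, a placental hormone gene, had 10, 129 and 0 alignments, which sets CAST-/129+ apart from both others. Ectoderm and neural markers had 0 of 15 called, but most were too low for the 3-fold rule to reach. Of the 5 with a mean of at least 1 FPKM, 4 were higher and 0 lower than both, beside the same 33.9% and 40.7%. Ncam1 was at 2.67, 3.62 and 7.34 FPKM, Nes at 14.3, 10.5 and 19.9 FPKM and Neurod1 at 0.794, 1.37 and 2.71 FPKM.

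Signalling and chromatin lists had no gene past 3-fold against both clones. Of 32 genes of LIF, BMP, FGF and Nodal signalling 0 were called, and Bmp4 and Lefty1 were the genes past 2-fold. Suz12 was at 72.7, 64.3 and 45.5 FPKM and Ezh2 at 33.4, 34.6 and 23.7 FPKM. Of 11 genes of Polycomb repressive complex 2, which methylates H3K27, 7 were lower and 3 higher than both. Of 9 DNA methylation enzymes 6 were lower and 2 higher than both, with Dnmt3l, a cofactor of de novo methylation, at 101.1, 82.8 and 56.8 FPKM. Neither of these lists had a gene called. Of all genes with a mean of at least 1 FPKM, 40.7% were lower and 33.9% higher than both. With a mean of at least 5 FPKM these shares were 46.5% and 28.8%.

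The 24 glycolysis and hypoxia genes had 0 called and medians of -0.11 and -0.10, with Pdk1, a kinase that inhibits pyruvate dehydrogenase, at 35.8, 31.3 and 15.3 FPKM. Of 31 amino acid response genes 0 were called, with medians of -0.15 and 0.03. Of the 29 with a mean of at least 1 FPKM, 14 were lower and 9 higher than both, beside 40.7% and 33.9% of all such genes. Atf5, which had the largest smaller ratio of the list, was at 10.9, 10.9 and 23.2 FPKM. The 12 housekeeping genes had 0 called and medians of -0.00 and 0.03, with Actb at 619.3, 567.8 and 629.1 FPKM.

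**Figure D4:**
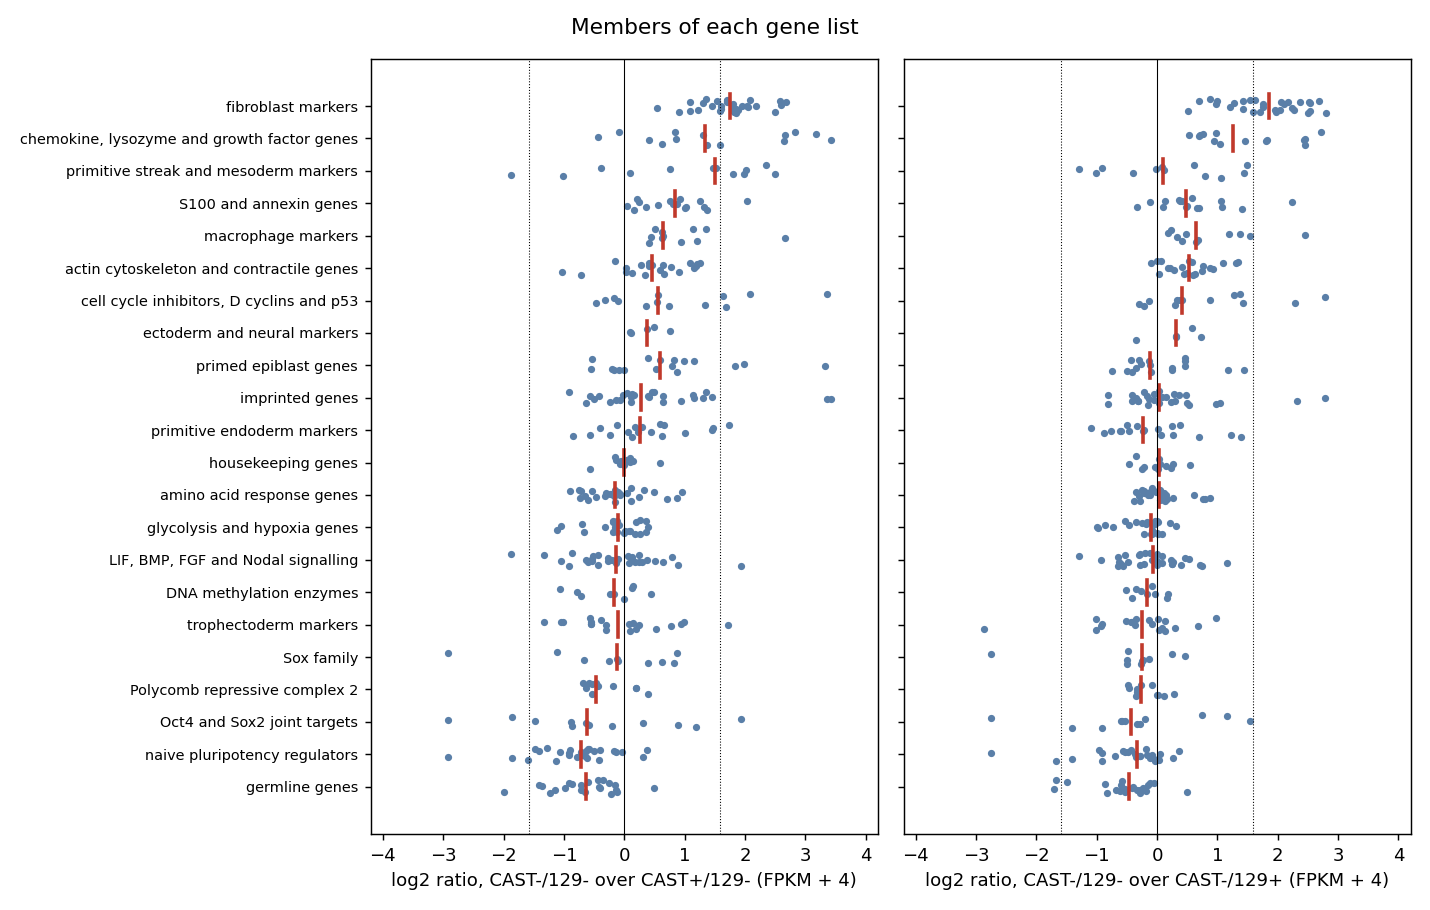
Log2 ratio of FPKM plus 4 in CAST-/129- over CAST+/129- (left) and over CAST-/129+ (right) for members of each gene list with a mean of at least 1 FPKM, with 1 point per gene, red bars at list medians and dotted lines at 3-fold. Fibroblast markers have medians of 1.75 and 1.86, naive pluripotency regulators -0.72 and -0.33, and the streak list has a median of 1.50 on the left and 0.10 on the right.

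Along chromosomes, medians over genes with a mean of at least 5 FPKM were near the overall -0.08 and -0.05, except on chromosome 8, in the mitochondrial genome and over the 3 genes of chromosome Y, which were at 0.03 and -0.18. On chromosome 8 the median was -0.39 against CAST+/129- and 0.03 against CAST-/129+ over 528 genes, and the monoallelic clones differed there by -0.43. The 14 mitochondrial genes were at 0.38 and -0.03. In runs of 25 neighbouring genes, a segment of 69 genes at chr8:3150922-23509093 had medians of 0.78 and 1.23, with 52 genes higher and 10 lower than both, and Efnb2 and Atp4b lie in it. The 57 genes at chr4:143837680-147931792 had medians of -0.66 and -0.53, with 5 higher and 48 lower. Over all genes at this mean 28.8% were higher and 46.5% lower than both. These segments join 45 and 28 of 8830 windows that were picked for the size of these same ratios, so that these values are a description. Copy number of these segments was not measured here.

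Depth differed between the libraries. Distinct alignments numbered 16380802 for CAST+/129-, 8613113 for CAST-/129+ and 7557984 for CAST-/129-, of which 12458895, 6058895 and 5831179 lay on measured genes. On average 1.84 to 2.03 reads stood behind a distinct alignment, and 72.2% to 76.0% of these alignments had a single read.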

How the data were processed

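RNA-seq libraries of 3 F123 clones and the F123 H3K27ac library were analysed. The authors mapped RNA reads with Novoalign and ChIP reads with Bowtie, and deposited aligned positions on mm9 with identical alignments collapsed and a whole-number count of the reads behind each. No read sequences were used, so that alleles were not told apart.

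Distinct alignments were counted by midpoint on the transcript strand, opposite to the line strand, in exonic bases of 1 gene of GENCODE M1, for genes with at least 200 such bases. FPKM used alignments on these genes as library size, and 4 was added to FPKM before ratios were taken and called at 3-fold, as in the study's methods. Collapsing can limit the counts of abundant genes, and how far this differed between the libraries by abundance was not tested. List medians used genes with a mean of at least 1 FPKM and chromosome medians at least 5 FPKM.

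Members and lists were chosen with earlier results of these data known. Named genes were those the study names, neighbours of Sox2, and the 15 largest increases and decreases. The lists add some of their called genes or, where none was called, some of the 3 with the largest smaller ratio. Further list members, ends of ranges and genes near thresholds were chosen after their values were seen. With 1 library per genotype no test was run, and intervals are exact 95% Poisson or binomial intervals that cover counting error only. Gene symbols of the lists were matched through RefSeq synonyms, and Sox1, Pou3f1 and Kcnq1ot1 were not matched. The rule that calls genes was checked on gene counts simulated with Poisson noise and planted changes. The counting of alignments on genes was not part of that check. Alternatives changed the library size, collapsing, depth, strand, pseudo-value, threshold and filters. The analysis used scipy 1.17.1, pandas 2.3.3, numpy 2.4.6 and matplotlib 3.10.9 under Python 3.11.15.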

Additional observations from a re-analysis of the deposited data

How the results depend on the processing

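With 1 clone and 1 library per genotype, no alternative says how far clones of 1 genotype differ, and no paired analysis was possible because each genotype has 1 sample. Under the 7 alternatives run for single genes, Sox2, the other 9 lower genes and the 15 genes that ranked highest kept their direction, and Sox2 stayed past 3-fold. Counts of calls moved by over 1.5 times with the pseudo-value and the threshold. With 1 in place of 4, 149 genes were higher and 56 lower than both and 146 were apart between the monoallelic clones, and with 10 these were 20, 4 and 11. Sox2 log2 ratios were then -3.30 and -3.14 with 1, and -2.40 and -2.26 with 10. A 2-fold threshold gave 174, 58 and 137 genes and a 5-fold threshold 10, 2 and 9. With all distinct alignments as library size, 5 genes were lower and Sox2 was at -2.51 against CAST-/129+, and with genes of any exonic length 54 genes were apart between the monoallelic clones. Leaving out members of the fibroblast and macrophage lists, an alternative chosen after seeing the data as was leaving out chromosome 8, left 21 higher genes. The part of such cells in the values of those 21 was not tested.

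List calls also moved. With all alignments as library size, 0 germline genes were called lower. With reads before collapsing, 2 naive pluripotency regulators and 2 germline genes were called lower, and 2 primitive endoderm, 1 contractile, 3 S100 and annexin and 2 imprinted genes higher. Thinned to equal reads, 2 imprinted genes were called higher. With a pseudo-value of 1, 1 primed epiblast, 4 primitive streak and 4 macrophage genes were called higher and 3 germline genes lower, and of genes with Sox2 at the promoter 5 were called higher and 2 lower. With 10, 9 fibroblast markers were called higher, 0 germline genes lower and 0 genes with Sox2 at the promoter higher. The remaining 294 list counts were within 1.5 times the reported ones. Among the lower genes and the 15 that ranked highest, Npl, Stk31, Zcwpw1, Hormad1, Tuba3b and Gm15529 lost the 3-fold call in 16 instances. The other higher genes were not followed one by one. The causes were not tested, apart from what a threshold or pseudo-value sets by construction. A gene with 0 counts is known only to lie below 0.241 to 0.514 CPM, depending on the library.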
